A study of Homo sapiens with 101 samples.

Results

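The 10 genes described here belong to the YAP/TEAD branch of the Hippo pathway: YAP1 and TEAD1, the regulators LATS2, AJUBA and AMOTL2, and the target genes CCN1, CCN2, ANKRD1, AXL and F3. They were chosen by name, and each was read from the probe set with the highest mean over all arrays among those that the platform annotation gives to its symbol or an older alias (CCN1 was listed as CYR61 and CCN2 as CTGF in older annotations). All 10 were found, among 19775 genes with a probe set of their own, on 22 probe sets in all. AMOTL2, ANKRD1, CCN2 and F3 had 1 probe set each, and the other 6 genes had several.

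YAP1 is a coactivator that enters the nucleus when the Hippo kinases are inactive and binds DNA through TEAD transcription factors. LATS1 and LATS2 are the kinases that phosphorylate YAP1 and hold it in the cytoplasm, angiomotin proteins such as AMOTL2 bind YAP1 outside the nucleus, and the LIM protein AJUBA restrains the LATS kinases. In cultured epithelial cells, CCN1, CCN2 and ANKRD1 are widely used as readouts of this branch, and LATS2, AMOTL2 and AJUBA are themselves among its known targets.

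Both cell lines are established and come from 1 case of colorectal cancer, in which the primary tumour gave rise to SW480 and a lymph node metastasis to SW620. Each line was measured under 9 treatments: an empty pLKO vector, a non-target hairpin in that vector, no transduction, and a short hairpin RNA (shRNA) against NGFR, MAPK3, MAP2K2, MAP2K1, HRAS or CDK5. Total RNA was hybridised to 101 Affymetrix arrays in 18 groups. There were 6 arrays in 15 of them, 5 in the SW620 group with CDK5 knockdown, which lacks replicate 1, and 3 in each non-transduced group. Per the labels, CDK5, MAP2K1, MAP2K2, MAPK3 and NGFR were each targeted with 1 coded hairpin. HRAS was targeted with 1 code in replicate 1 and another in replicates 3 to 6, and replicate 2 names no hairpin, so hairpin and replicate cannot be told apart for HRAS. Replicates 3 to 6 carry paired codes that may stand for repeated arrays of fewer cultures, and the p-values then measure the spread between these samples only. The third non-transduced array of each line is titled replicate 7.

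By the style of their names the samples form 4 label series, with 17 arrays in replicate 1, 18 in replicate 2, 64 in replicates 3 to 6 and 2 in replicate 7. The median log2 level of an array was 5.05 to 5.28. In 3 SW620 arrays the GAPDH 3 prime probe exceeded the 5 prime probe by over 2 on the log2 scale, a sign of degraded RNA: MAP2K1 knockdown replicate 2 (6.04), NGFR knockdown replicate 1 (3.82) and MAPK3 knockdown replicate 2 (2.95). The highest such value among the other arrays was 1.47. In 3 SW480 arrays of replicate 1, genes that separate the lines lay part of the way towards SW620, by 37.5% in the MAP2K1, 69.4% in the MAP2K2 and 52.2% in the MAPK3 knockdown. Each targeted gene was lower in its own knockdown than in the vector controls. On the log2 scale the change ran from -0.32 (MAPK3) to -3.43 (NGFR) in SW480. In SW620 it ran from -0.52 (NGFR) to -1.86 (MAP2K1), with -0.59 for MAPK3 and -0.74 for HRAS. The change of NGFR in SW620 did not pass the test (limma, adjusted p = 0.136). Of 9 colon epithelial markers, 8 had a mean above the array median, against 1 of 3 leukocyte, 1 of 3 endothelial and 4 of 6 fibroblast markers. The highest fibroblast marker by mean was COL1A1, at 7.34. LUM, another of them, ran from 2.93 to 9.97 over the arrays, with a median of 5.44. Because whole cultures were measured, fewer cells expressing a gene and less RNA per cell cannot be told apart.

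TEAD proteins bind the letters GGAATG, which read CATTCC on the other strand. The 250 bases before each annotated start were searched for both forms in the RefSeq windows of GRCh38.p14. The 8 members found there have 11 windows, of which 6, each of another gene, held at least 1 match, as did 11.9% of all 35116 windows. CCN1 and TEAD1 were named only. The windows of the 5 target genes or feedback regulators with a match are shown, since CCN2, AMOTL2, AJUBA and AXL fell in several SW620 knockdowns and ANKRD1 set the lines apart. All are written 5′ to 3′ on the strand of the gene, with matches in capitals.
CCN2: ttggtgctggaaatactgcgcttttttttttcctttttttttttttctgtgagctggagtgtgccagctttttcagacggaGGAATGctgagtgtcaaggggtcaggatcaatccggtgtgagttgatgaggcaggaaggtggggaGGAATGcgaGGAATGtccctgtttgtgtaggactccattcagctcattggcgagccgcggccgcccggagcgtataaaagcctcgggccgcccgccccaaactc
ANKRD1: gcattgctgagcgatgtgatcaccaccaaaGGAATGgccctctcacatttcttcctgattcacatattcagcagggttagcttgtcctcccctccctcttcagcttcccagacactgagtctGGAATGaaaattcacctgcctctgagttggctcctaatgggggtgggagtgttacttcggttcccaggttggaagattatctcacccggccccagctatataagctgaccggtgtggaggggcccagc
AMOTL2: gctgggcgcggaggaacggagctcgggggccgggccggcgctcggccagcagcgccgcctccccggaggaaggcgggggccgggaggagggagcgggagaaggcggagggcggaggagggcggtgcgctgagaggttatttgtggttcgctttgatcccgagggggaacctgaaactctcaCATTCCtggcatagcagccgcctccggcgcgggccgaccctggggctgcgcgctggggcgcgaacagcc
AJUBA: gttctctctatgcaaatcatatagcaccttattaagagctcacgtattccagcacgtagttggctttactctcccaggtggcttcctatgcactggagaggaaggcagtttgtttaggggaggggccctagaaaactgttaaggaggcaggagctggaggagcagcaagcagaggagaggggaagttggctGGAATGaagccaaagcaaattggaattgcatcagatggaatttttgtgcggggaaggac
AXL: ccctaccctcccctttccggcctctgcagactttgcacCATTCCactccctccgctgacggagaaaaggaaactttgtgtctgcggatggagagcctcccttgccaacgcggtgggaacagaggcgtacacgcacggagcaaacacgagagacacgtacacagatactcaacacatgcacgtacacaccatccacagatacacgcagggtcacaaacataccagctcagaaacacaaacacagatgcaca

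The CCN2 window (chr6:131951373-131951622, minus strand) held 3 matches, which began 169, 104 and 95 bases before the start. Only 0.0826% of all windows held 3 or more. The ANKRD1 window (chr10:90921088-90921337, minus strand) held 2, at 220 and 128 bases, a number reached by 0.940% of windows. AMOTL2 (chr3:134374448-134374697, minus strand) held 1 at 69 bases, AJUBA (chr14:22976843-22977092, minus strand) 1 at 59 bases and AXL (chr19:41226505-41226754, plus strand) 1 at 212 bases. Each of these 3 genes has another annotated start whose window held none. YAP1 (chr11:102110197-102110446, plus strand) held 1 at 162 bases, and the windows of F3 and LATS2 held none. A match describes the letters only and is not a measured binding site.

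Each knockdown was compared, within each line, with the mean of both vector control groups of that line, adjusted for label series. A change is the log2 difference from these controls ± its standard error, and a gene is said to rise or fall where its limma p, adjusted over all 19775 genes, was under 0.05. The 6 comparisons of a line share the same 12 control arrays, so falls of 1 gene in several knockdowns are not independent of each other. Over the 12 comparisons the members made 120 tests, of which 6 were rises and 24 were falls, while 19.5% of all tests over all genes were called and 10.5% were falls. In SW480 the members passed in 8 of 60 tests, 3 higher and 5 lower, near the 13.4% called over all genes. In SW620 they passed in 22 of 60 tests, 3 higher and 19 lower, where 25.6% of all tests were called and 13.6% were falls.

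The changes were spread unevenly over the members. CCN2, AXL and AJUBA fell in 5 of 12 comparisons each and AMOTL2 in 3. F3 rose in 3, LATS2 rose in 2, ANKRD1 and TEAD1 fell in 2, YAP1 fell in 1, and CCN1 fell in 1 and rose in 1. By knockdown, the members called in SW480 and in SW620 were 3 and 4 for CDK5 (background 8.06% and 24.0%), 2 and 3 for HRAS (26.2% and 31.0%) and 1 and 4 for MAP2K1 (6.54% and 19.1%). They were 0 and 4 for MAP2K2 (5.17% and 23.2%), 0 and 4 for MAPK3 (10.7% and 29.8%) and 2 and 3 for NGFR (24.0% and 26.3%). With limma's unadjusted p under 0.05, 1 member passed in the MAP2K2 knockdown of SW480 (ANKRD1, -0.34) and 2 passed in the MAPK3 knockdown of SW480 (AJUBA, 0.48, and AMOTL2, -0.59). Of all 19775 genes, 3650 and 4394 had such a p in these knockdowns. The median member change was negative in 11 of 12 comparisons, from -0.41 in the CDK5 knockdown of SW480 to 0.11 in the MAP2K1 knockdown of SW480, while the medians over all genes lay between -0.02 and 0.02.

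**Figure D1:**
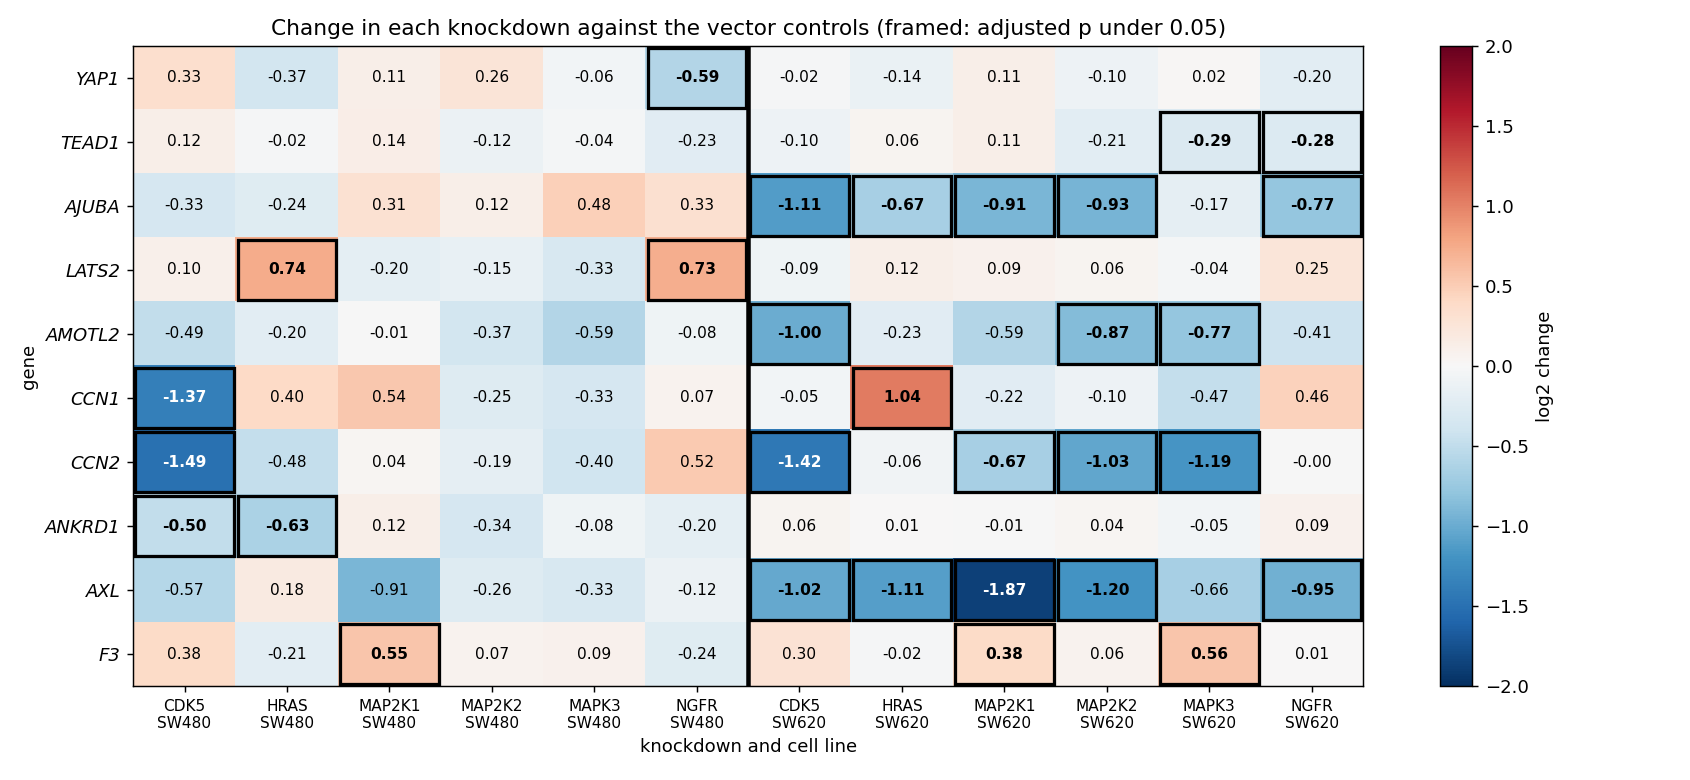
Heat map of the log2 change of each of the 10 genes (rows) in each of the 12 knockdown and line comparisons (columns) against the vector controls. Framed cells have an adjusted limma p under 0.05, and 19 of the 24 framed falls lie in SW620, mostly in the rows of CCN2, AXL, AJUBA and AMOTL2.

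The transcription factor and its coactivator were high in both lines and moved little. YAP1 ranged from 8.70 to 10.7 in the 12 SW480 control arrays (median 10.6) and from 9.49 to 10.9 in those of SW620 (median 10.7). TEAD1, the DNA-binding partner, had a median of 10.9 in the controls of both lines. Their means over all arrays stood at the 94.8 and 95.8 percentile of all genes. YAP1 fell in the NGFR knockdown of SW480, where the 6 arrays ran from 8.25 to 10.1 with a median of 10.01. Every one of these arrays lay below all controls of its line and label series, and the change of -0.59 ± 0.17 (adjusted p = 0.00490) left 66.4% of the control level. Of the other YAP1 probe sets, the second gave -0.53 and the third 0.13 in that comparison, and with the average of all 3 the call ended (-0.33, adjusted p = 0.0801). On the probe set used YAP1 passed in none of the other 11 comparisons. The second also fell in the HRAS knockdown of SW480 (-0.58, adjusted p = 0.0210) and the MAPK3 knockdown of SW620 (-0.54, adjusted p = 0.0284), where the one used gave -0.37 and 0.02.

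TEAD1 fell slightly in SW620, by 0.29 ± 0.11 in the MAPK3 knockdown (adjusted p = 0.0345) and by 0.28 ± 0.11 in the NGFR knockdown (adjusted p = 0.0493). The controls ran from 8.87 to 11.0, the MAPK3 arrays from 8.95 to 10.7 and the NGFR arrays from 8.61 to 10.8, so the groups overlapped. Within replicate 1, replicate 2 and replicates 3 to 6 the MAPK3 change was -0.67, 0.11 and -0.29, and the NGFR change was -1.01, 0.13 and -0.20. In the NGFR knockdown of SW620 the other TEAD1 probe sets gave -0.04 and -0.56, and in that of SW480 they gave 0.44 and 0.61 where the one used gave -0.23. The MAPK3 call ended without replicate 1 (-0.21, adjusted p = 0.0530), without any 1 of replicates 3 to 6 (adjusted p = 0.0656 to 0.134), against either control alone (adjusted p = 0.0581 and 0.121) and with the TEAD1 probe sets averaged (-0.16, adjusted p = 0.310). The NGFR call ended when the degraded arrays were left out (-0.10, adjusted p = 0.498), without replicate 1 (-0.13, adjusted p = 0.294), without any 1 of replicates 3 to 6 (adjusted p = 0.0890 to 0.119), against either control alone (adjusted p = 0.0796 and 0.154), and with a replicate block (adjusted p = 0.0601).

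Among the regulators, LATS2, the kinase that inactivates YAP1, rose in the HRAS and NGFR knockdowns of SW480. On the probe set used it passed in none of the other 10 comparisons. The SW480 controls ran from 7.95 to 9.44 with a median of 9.02. The 6 HRAS arrays ran from 8.42 to 10.4 (median 9.73) and the 6 NGFR arrays from 9.15 to 9.84 (median 9.70), and all 12 lay above every control of their label series. The changes were 0.74 ± 0.23 (adjusted p = 0.0102), or 1.67-fold, and 0.73 ± 0.23 (adjusted p = 0.0120). The other LATS2 probe sets gave 0.99, 0.44 and 0.35 in the HRAS knockdown and 1.04, -0.05 and 0.31 in the NGFR knockdown, so they disagree for NGFR. Against the empty vector alone both calls ended (0.56, adjusted p = 0.115, and 0.55, adjusted p = 0.159), and within replicates 3 to 6 the changes were 0.51 and 0.53. In SW480 the mean of the NGFR knockdown stood 0.55 above that of the empty vector, the next group below it, a gap larger than the SD of either group.

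AJUBA, the LIM protein that restrains LATS kinases, fell in 5 of 6 SW620 knockdowns and passed in none of SW480 on the probe set used. The SW620 controls ran from 9.15 to 10.04 with a median of 9.86. The 6 MAP2K1 arrays lay between 8.72 and 8.98 (median 8.84), all below the whole range of the controls, and the change was -0.91 ± 0.19 (adjusted p = 0.000197). The MAP2K2 arrays lay between 8.34 and 9.08 (median 8.92), also below all controls, with a change of -0.93 ± 0.19 (adjusted p = 1.00e-04). The 5 CDK5 arrays read 8.11, 8.90, 8.79, 8.91 and 8.86 in replicates 2 to 6, a fall of 1.11 ± 0.20 (adjusted p = 1.29e-05), or 2.16-fold. The HRAS arrays ran from 8.23 to 9.56 (median 9.17) and partly overlapped the controls, with a change of -0.67 ± 0.19 (adjusted p = 0.00345).

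In the NGFR knockdown of SW620, AJUBA ran from 6.57 to 9.84 with a median of 9.77, and the fitted change was -0.77 ± 0.19 (adjusted p = 0.00124). The lowest value belonged to replicate 1, an array of degraded RNA, and without the arrays of degraded RNA the change was -0.29 (adjusted p = 0.117), and within replicates 3 to 6 alone it was -0.14 (adjusted p = 0.0675). In the MAPK3 knockdown AJUBA ran from 9.43 to 9.64 (median 9.60) and did not pass the test. It stood above the knockdown just below it in level, HRAS, by 0.50, more than the SD of either group. Of the 3 other AJUBA probe sets, both the second and the third fell alongside the first in SW620, by 1.17 and 1.12 for CDK5, 0.98 and 0.74 for MAP2K1, and 1.01 and 0.92 for MAP2K2. The fourth stayed between -0.11 and 0.13 in SW620. In the NGFR knockdown of SW480 it rose (0.36, adjusted p = 0.000438), where the third gave -0.43 and the one used 0.33. The third also fell in SW480, by 0.59 for CDK5 (adjusted p = 0.0322) and by 0.73 for HRAS (adjusted p = 0.00161), where the probe set used did not pass.

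AMOTL2, the angiomotin protein that binds YAP1, fell in the CDK5, MAP2K2 and MAPK3 knockdowns of SW620. The SW620 controls ran from 7.54 to 8.17 with a median of 7.84. The CDK5 arrays read 6.78, 6.99, 6.86, 6.98 and 6.98 in replicates 2 to 6, all below every control, and the change was -0.997 ± 0.26 (adjusted p = 0.00285). The MAP2K2 arrays ran from 5.44 to 7.44 (median 7.31), below all controls, with a change of -0.87 ± 0.25 (adjusted p = 0.00556). The lowest of them was replicate 1, and without replicate 1 the change was -0.60, still called. The MAPK3 arrays ran from 6.79 to 7.87 (median 6.95), with a change of -0.77 ± 0.25 (adjusted p = 0.0122). With the non-target hairpin as the only control the change was -0.73 and no longer passed (adjusted p = 0.0524), nor did it without replicate 4, 5 or 6 (adjusted p = 0.0610 to 0.0642). AMOTL2 passed in none of the SW480 comparisons. In the CDK5 knockdown of SW480 its change was -0.49, and all 6 arrays lay below every control of their label series.

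**Figure D2:**
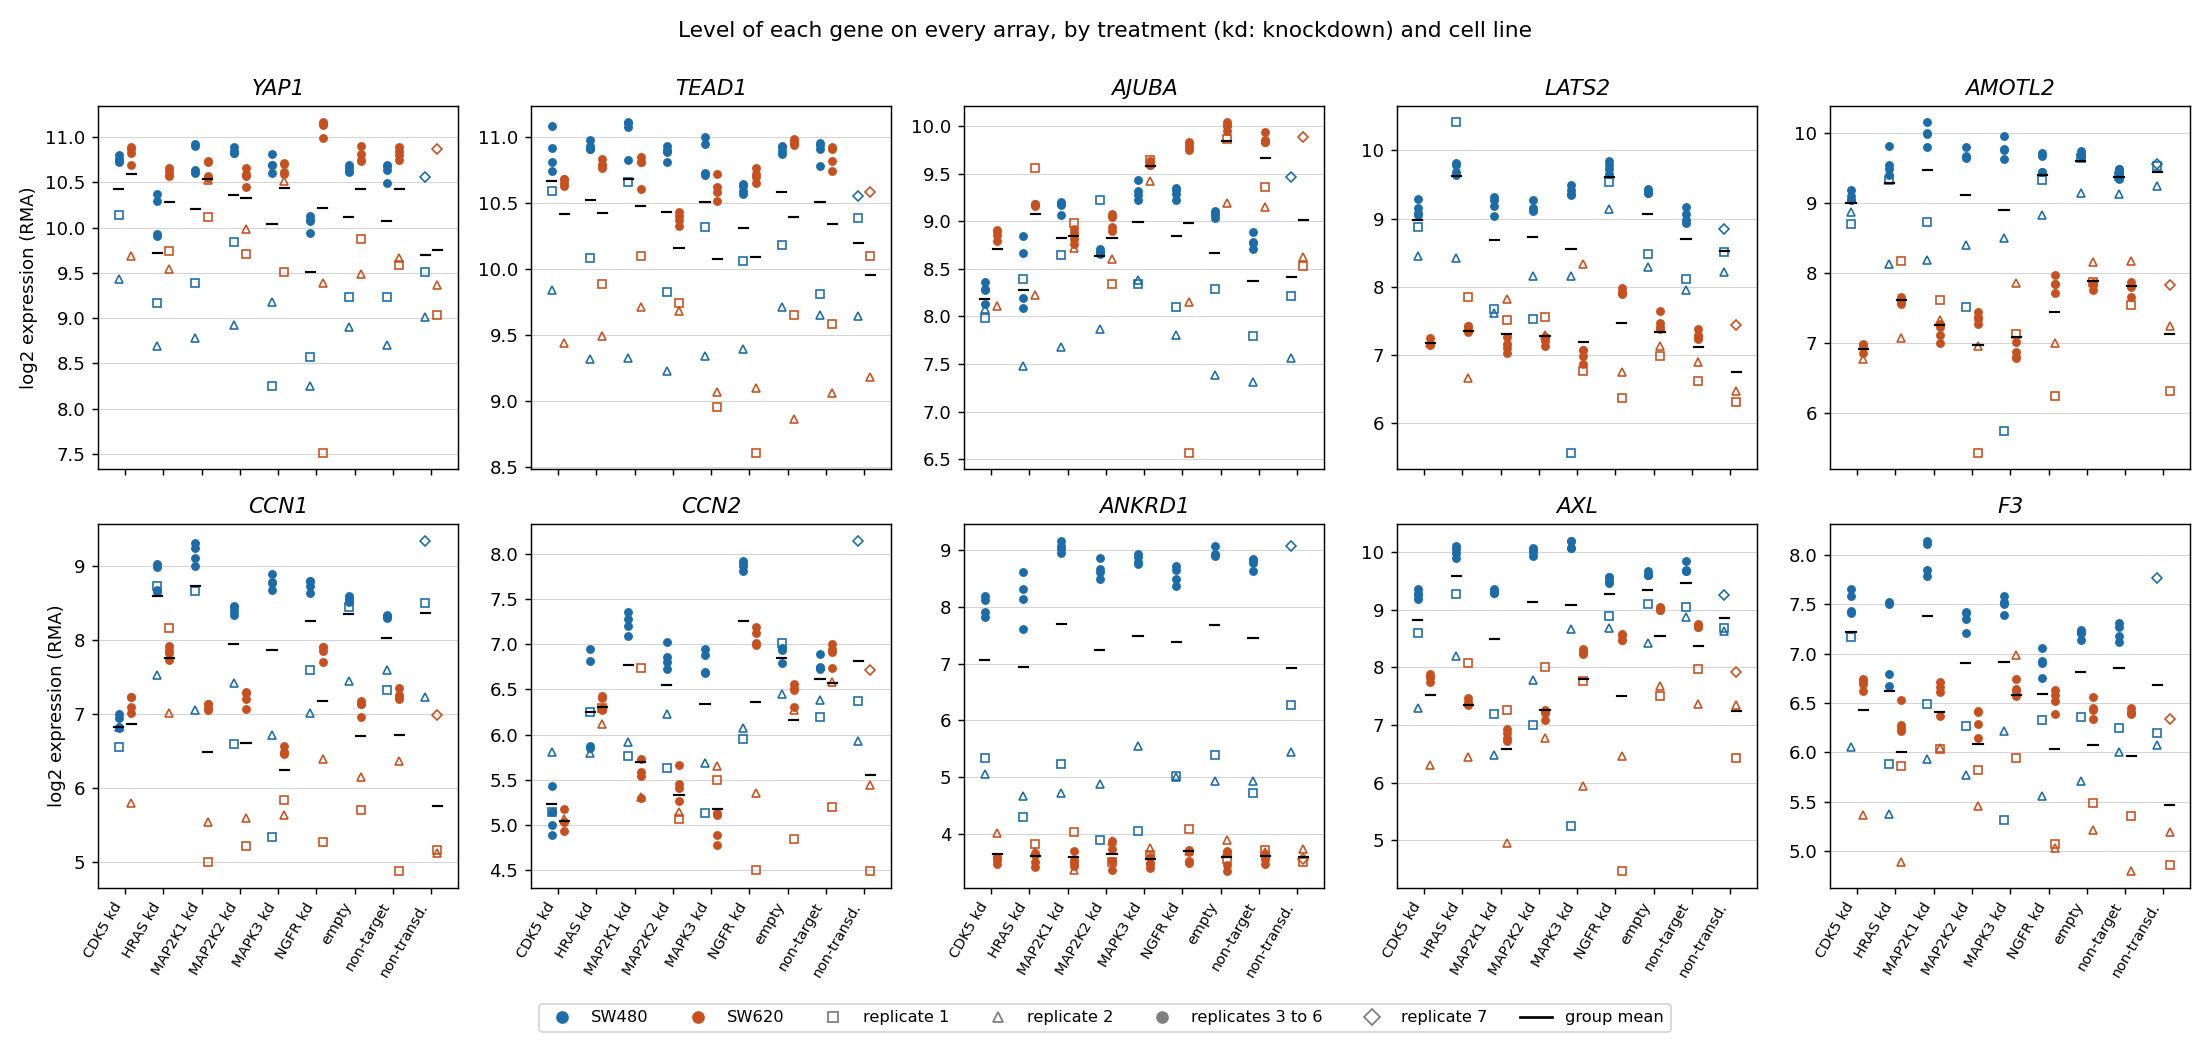
Log2 level of each gene on every array, by treatment, with SW480 in blue and SW620 in orange. Squares mark replicate 1, triangles replicate 2, circles replicates 3 to 6 and diamonds replicate 7, and black bars are group means. ANKRD1 lies between 3.35 and 4.09 on all SW620 arrays, and in most other panels replicates 1 and 2 spread more widely than replicates 3 to 6.

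CCN1 and CCN2 encode secreted matricellular proteins and are the best known YAP/TEAD targets. Both fell in the CDK5 knockdown of SW480. CCN1 ran from 7.32 to 8.60 in the SW480 controls (median 8.34) and from 6.55 to 7.00 on the 6 CDK5 arrays (median 6.82), with no overlap. The change was -1.37 ± 0.22 (adjusted p = 4.49e-06), to 38.7% of the controls, and its second probe set gave -1.53. Within replicate 1, replicate 2 and replicates 3 to 6 the change was -1.33, -0.70 and -1.55. In the CDK5 knockdown of SW620, CCN1 did not pass, and the difference between the lines passed its own test (1.32 ± 0.33, SW620 minus SW480, adjusted p = 0.00291).

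CCN1 rose in the HRAS knockdown of SW620. The controls ran from 4.88 to 7.36 with a median of 7.13, and the HRAS arrays from 7.02 to 8.17 with a median of 7.85. All 6 lay above every control of their label series, and the change was 1.04 ± 0.22 (adjusted p = 0.000115), or 2.06-fold. It was 2.88 within replicate 1, 0.77 within replicate 2 and 0.66 within replicates 3 to 6. Without replicate 1 the change was 0.68 and still called. The second CCN1 probe set gave 0.94, and it also fell in the MAPK3 knockdown of SW620 (-0.67, adjusted p = 0.0152), where the one used gave -0.47 and did not pass.

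CCN2 fell in the CDK5 knockdown of both lines and in the MAP2K1, MAP2K2 and MAPK3 knockdowns of SW620. In SW480 the controls ran from 6.20 to 7.01 (median 6.77) and the 6 CDK5 arrays from 4.89 to 5.81 (median 5.15), with no overlap and a change of -1.49 ± 0.24 (adjusted p = 2.66e-06), or 2.82-fold lower. The CDK5 group mean stood 1.02 below that of the HRAS knockdown, the next group in SW480, and this gap exceeded the SD of either. In SW620 the controls ran from 4.85 to 7.00 (median 6.54). The 5 CDK5 arrays read 5.07, 4.94, 5.03, 5.03 and 5.18, each below all controls of its label series. The change was -1.42 ± 0.26 (adjusted p = 1.01e-05), or 2.68-fold lower. The lowest controls, 4.85 and 5.20, were both of replicate 1.

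Of the remaining CCN2 falls in SW620, the one in the MAPK3 knockdown was the largest. Its arrays ran from 4.78 to 5.65 (median 5.13), and the change was -1.19 ± 0.24 (adjusted p = 5.39e-05). The MAP2K2 arrays ran from 5.07 to 5.66 (median 5.34), with a change of -1.03 ± 0.24 (adjusted p = 0.000621). The MAP2K1 arrays ran from 5.30 to 6.74 (median 5.56), with a change of -0.67 ± 0.24 (adjusted p = 0.0373). These 3 changes differed between label series. Within replicates 3 to 6 they were -1.70, -1.24 and -1.15, and within replicate 1 they were 0.48, 0.04 and 1.71. The MAP2K1 call ended without any 1 of replicates 2 to 6 (adjusted p = 0.115 to 0.199), against the empty vector alone (-0.47, adjusted p = 0.291), after a second quantile normalisation (-0.55, adjusted p = 0.109), and when the degraded arrays were left out (-0.63, adjusted p = 0.0571), while without replicate 1 the change was -1.14. In the HRAS and NGFR knockdowns of SW620, CCN2 did not pass, with medians of 6.29 and 7.00.

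ANKRD1 encodes a nuclear ankyrin repeat protein of striated muscle that YAP1 also activates in epithelial cells. It was near the lower end of the scale in SW620, between 3.35 and 4.09 on all 50 arrays, and no SW620 comparison called it. In SW480 its level depended on label series: the controls lay between 4.73 and 5.40 in replicates 1 and 2 and between 8.63 and 9.07 in replicates 3 to 6. It fell in the HRAS knockdown of SW480 by 0.63 ± 0.14 (adjusted p = 0.000141), where the 6 arrays ran from 4.30 to 8.60 and each lay below all controls of its label series. The CDK5 arrays ran from 5.05 to 8.18, with a change of -0.50 ± 0.14 (adjusted p = 0.00969). That change was 0.28 within replicate 1, 0.12 within replicate 2 and -0.85 within replicates 3 to 6, and with the non-target hairpin as the only control it was -0.38 and did not pass (adjusted p = 0.160), nor did it without any 1 of replicates 3 to 6 (adjusted p = 0.0920 to 0.141).

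AXL, a receptor tyrosine kinase of the TAM family, fell in 5 of 6 SW620 knockdowns and did not pass in that of MAPK3. The MAPK3 change was -0.66, and 5 of its 6 arrays lay below all controls of their label series. Within replicate 1, replicate 2 and replicates 3 to 6 the MAPK3 change was 0.02, -1.59 and -0.59. The SW620 controls ran from 7.37 to 9.04 with a median of 8.72. In the MAP2K1 knockdown the 6 arrays ran from 4.94 to 7.25 (median 6.82), all below every control. The change of -1.87 ± 0.32 (adjusted p = 8.38e-06) left 27.3% of the control level. The lowest array, replicate 2, was of degraded RNA, and without the arrays of degraded RNA the change was -1.72. With the mean of both AXL probe sets it was -1.12, and the second probe set gave -0.37 alone. On the probe set used no SW480 comparison called AXL. In the MAP2K1 (-0.91) and CDK5 (-0.57) knockdowns of SW480 all 6 arrays lay below every control of their label series. In that of HRAS the change was 0.18, and the second probe set rose there (0.31, adjusted p = 0.0436).

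In the CDK5 knockdown of SW620, AXL read 6.30, 7.83, 7.76, 7.84 and 7.88, with a change of -1.02 ± 0.35 (adjusted p = 0.0220). The MAP2K2 arrays ran from 6.77 to 8.01 (median 7.21), with a change of -1.20 ± 0.32 (adjusted p = 0.00367). The HRAS arrays ran from 6.45 to 8.08 (median 7.38), with a change of -1.11 ± 0.32 (adjusted p = 0.00497). In both the MAP2K2 and HRAS knockdowns 5 arrays lay below and 1 above all controls of their label series. The NGFR arrays ran from 4.46 to 8.57 (median 8.48), and the change of -0.95 ± 0.32 (adjusted p = 0.0207) was -3.28 within replicate 1 and -0.34 within replicates 3 to 6. The second AXL probe set gave -0.26 for CDK5, -0.24 for MAP2K2, -0.30 for HRAS and 0.02 for NGFR. Against the non-target hairpin alone the CDK5 (-0.94, adjusted p = 0.0858) and NGFR (-0.87, adjusted p = 0.0890) calls ended. The CDK5 call also ended without replicate 2 (-0.95, adjusted p = 0.0643) or any 1 of replicates 3 to 6 (adjusted p = 0.0845 to 0.0952), and the NGFR call ended when the degraded arrays were left out (-0.36, adjusted p = 0.387).

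F3, tissue factor, which starts blood coagulation, was the only one of the 5 targets that rose in some comparisons and fell in none. In the MAPK3 knockdown of SW620 its arrays ran from 5.95 to 6.99 (median 6.63) against controls from 4.80 to 6.56 (median 6.40). All 6 lay above every control of their label series, with a change of 0.56 ± 0.14 (adjusted p = 0.00134). The change was 1.98 within replicate 2, which holds an array of degraded RNA, and 0.21 within replicates 3 to 6. Without replicate 2 the call ended (0.28, adjusted p = 0.104), as it did without the 3 degraded arrays (0.30, adjusted p = 0.0682).

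In the MAP2K1 knockdown F3 rose in both lines. The SW480 arrays ran from 5.93 to 8.14 (median 7.82) against controls from 5.71 to 7.31 (median 7.16), with a change of 0.55 ± 0.14 (adjusted p = 0.00726). The SW620 change was 0.38 ± 0.14 (adjusted p = 0.0471). In SW480 the call ended when any of replicates 3 to 6 was left out (adjusted p = 0.0554 to 0.119). In SW620 it ended against either control alone (0.33, adjusted p = 0.194, and 0.44, adjusted p = 0.0646) and within replicates 3 to 6 alone (0.16, adjusted p = 0.166). It also ended when the degraded arrays were left out (0.27, adjusted p = 0.132), without replicate 2, 4, 5 or 6 (adjusted p = 0.0847 to 0.189) and with a replicate block (0.38, adjusted p = 0.0602).

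**Figure D3:**
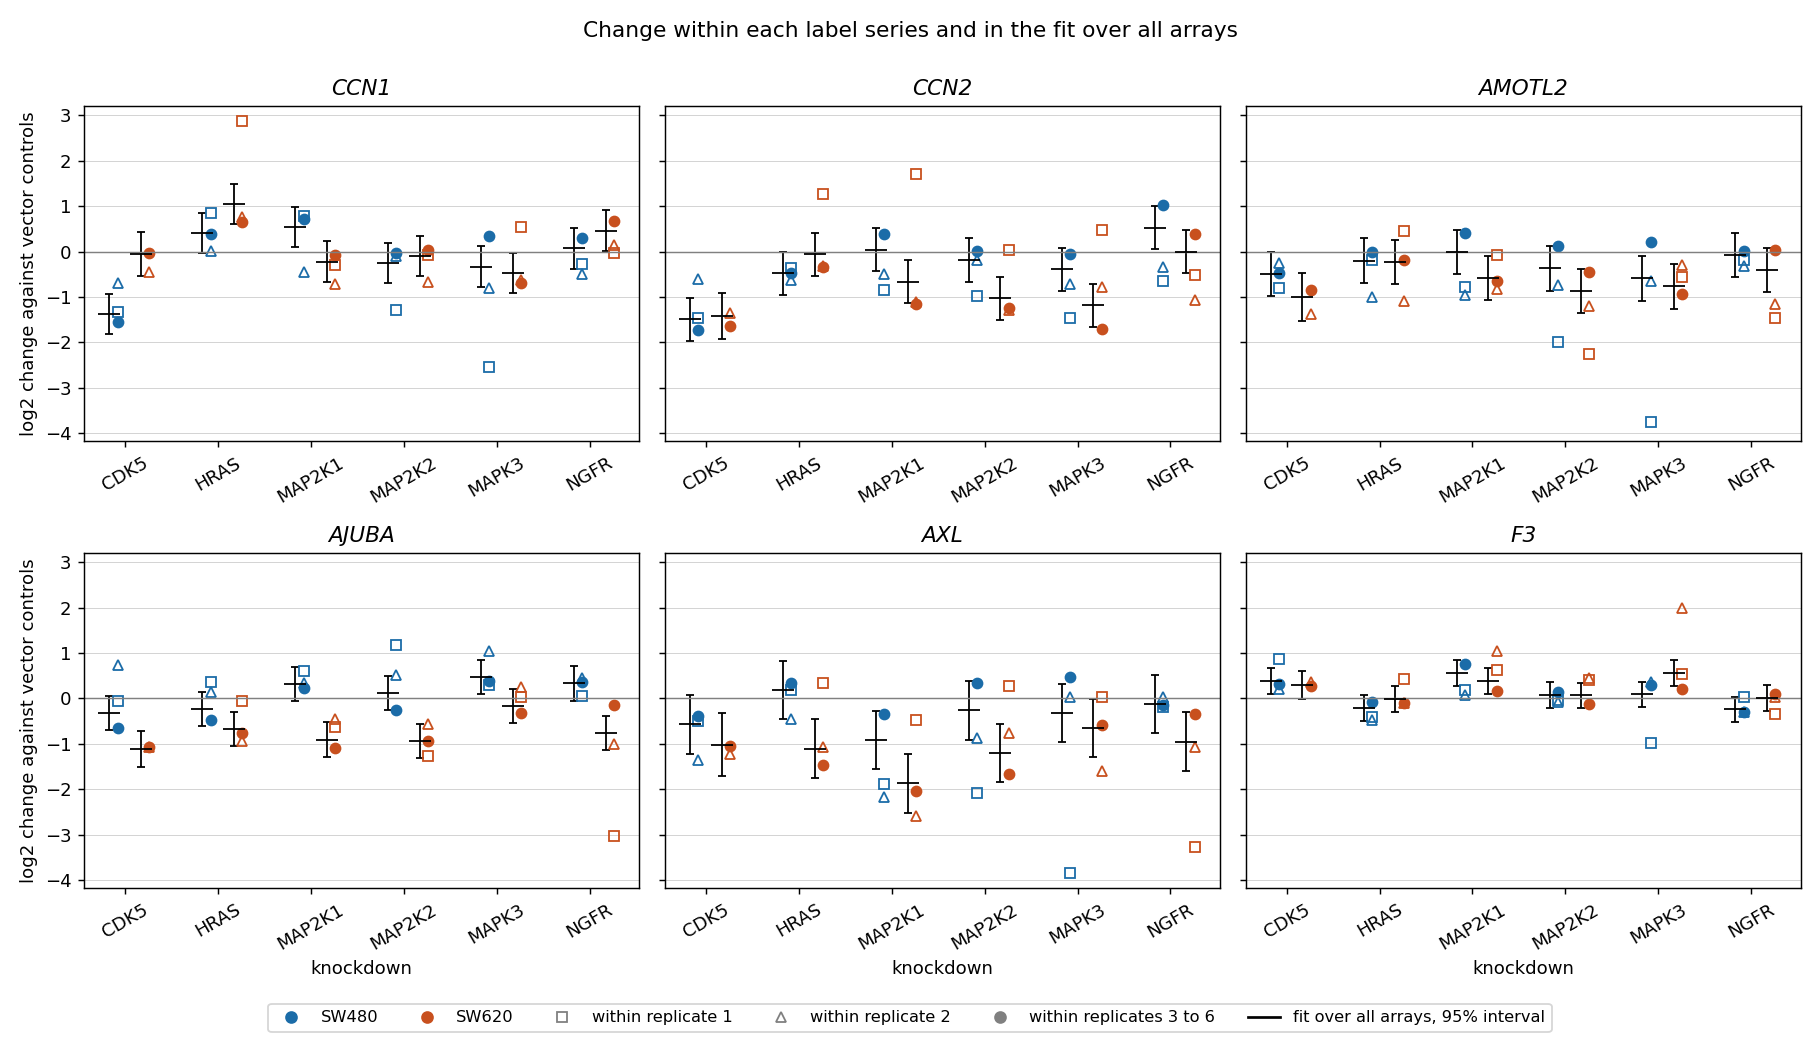
Log2 change against the vector controls within replicate 1, replicate 2 and replicates 3 to 6 (markers), with the fitted change and its 95% interval, for CCN1, CCN2, AMOTL2, AJUBA, AXL and F3 in each knockdown and line. For CCN1 in the CDK5 knockdown of SW480 the 3 label series lie at -1.33, -0.70 and -1.55, while for CCN2 in the MAP2K1 knockdown of SW620 replicate 1 lies at 1.71 and the others at -1.12 and -1.15.

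The 12 other probe sets of the members, in a fit over all probe sets, passed in 33 of 144 tests. The share called over all probe sets of that fit is not given here, and over all genes in the main fit it was 19.5%. In 20 of the 33 the probe set used passed in the same direction, in 13 it did not pass, and in 0 it passed in the opposite direction. Some of the 13 had the opposite sign to the probe set used. In SW480 these were TEAD1 for NGFR (0.44 and 0.61, with -0.23 on the one used) and for HRAS (0.46, with -0.02). In SW620 they were LATS2 for CDK5 (0.29, with -0.09) and NGFR (-0.28, with 0.25), and YAP1 for MAPK3 (-0.54, with 0.02). The groups of each line were ordered by mean level. Of 160 steps between neighbouring groups over the 10 genes, 3 exceeded the larger SD of both groups, and these are the gaps given above for LATS2, AJUBA and CCN2. These SDs include the differences between label series. Within replicates 3 to 6 alone, 61 of 140 steps exceeded the larger SD, from 2 of 14 for ANKRD1 to 12 of 14 for AXL. SW480 arrays that hold genes of SW620 had the lowest values of LATS2 (5.56), AMOTL2 (5.75) and AXL (5.24) in that line, all in MAPK3 knockdown replicate 1. All 30 calls stood without the 3 arrays of this kind.

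The vector controls were compared between the lines. Of the 10 members, 8 differed, 2 higher and 6 lower in SW620, where 48.6% of all genes were called. ANKRD1 was lower in SW620 (-3.96 ± 0.11, adjusted p = 4.19e-49), where its values lay near the lower end of the scale, so no fold is given. The fitted value averages unlike series, with a difference of -1.42 within replicate 1, -1.14 within replicate 2 and -5.29 within replicates 3 to 6. LATS2 (-1.66 ± 0.19), AMOTL2 (-1.64 ± 0.20) and CCN1 (-1.48 ± 0.18) were 3.16-fold, 3.11-fold and 2.80-fold lower. AXL differed by -0.95 ± 0.26, which did not pass with the empty vector as the only control (-0.80, adjusted p = 0.0830), and F3 by -0.81 ± 0.12. With the mean of its probe sets the LATS2 difference was -0.80. AJUBA was 2.35-fold higher in SW620 (1.23 ± 0.15) and YAP1 was slightly higher (0.33 ± 0.14, adjusted p = 0.0384). The YAP1 call ended with either vector control alone (adjusted p = 0.216 and 0.155), with its probe sets averaged (0.15, adjusted p = 0.310) and without replicate 2, 3, 4 or 6 (adjusted p = 0.0546 to 0.183). TEAD1 (-0.18 ± 0.09, adjusted p = 0.0872) and CCN2 (-0.36 ± 0.19, adjusted p = 0.117) did not pass.

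**Figure D4:**
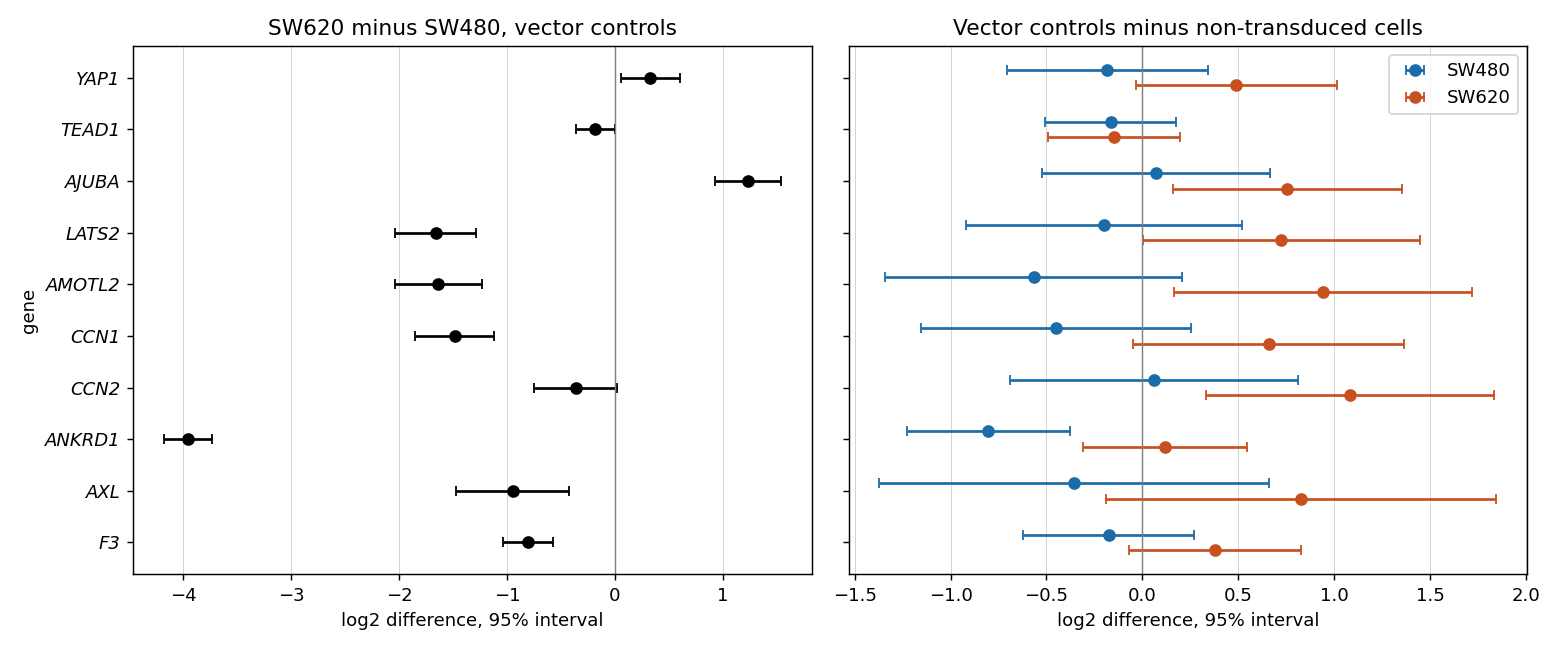
Left, the log2 difference between SW620 and SW480 in the vector controls for each gene, with its 95% interval. Right, the log2 difference between vector controls and non-transduced cells of each line, with the same intervals. It rests on replicates 1 and 2 of the non-transduced cells. ANKRD1 lies farthest from 0 on the left, at -3.96, and no gene on the right passed the test.

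The effect of the vector itself was read from the non-transduced arrays of each line. Replicate 7 is the only array of its label series in a line, so the label series term absorbs it. The comparison therefore rests on replicates 1 and 2 of the non-transduced cells. No member passed in either line, where 0.00% of all genes were called in SW480 and 5.88% in SW620. With limma's unadjusted p under 0.05, 1 member passed in SW480 (ANKRD1, -0.80) and 4 passed in SW620. Of all 19775 genes, 1157 in SW480 and 4066 in SW620 had such a p. The 4 members in SW620 were CCN2 (1.08, adjusted p = 0.0709), AMOTL2 (0.94), AJUBA (0.76) and LATS2 (0.72), all higher with a vector. In SW620, 9 of 10 members had a positive value, with a median of 0.69. In replicates 1 and 2 of SW620 the fitted control level of CCN2, AMOTL2 and AJUBA was higher than in non-transduced cells, by values that did not pass the test. Replicate 7, which this comparison does not use, read 6.71 for CCN2, 7.83 for AMOTL2 and 9.88 for AJUBA in SW620. The control means in replicates 3 to 6, another label series, were 6.69, 7.80 and 9.93. For AXL replicate 7 read 7.93 and that control mean was 8.87. The non-target hairpin and the empty vector differed in no member, where 0.101% of all genes were called in SW480 and 0.00506% in SW620. At an unadjusted limma p under 0.05 the members that passed were also 0. Of all 19775 genes, 1436 in SW480 and 477 in SW620 had such a p.

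The difference between the lines in the response to a knockdown passed for 8 of 60 pairs of member and knockdown, where 16.2% of all such tests were called. AJUBA made up 4 of them, with a lower change in SW620 than in SW480 for MAP2K1 (-1.21 ± 0.27, adjusted p = 0.00103), NGFR (-1.09 ± 0.27, adjusted p = 0.00119), MAP2K2 (-1.05 ± 0.27, adjusted p = 0.00497) and CDK5 (-0.78 ± 0.28, adjusted p = 0.0419). The third AJUBA probe set, in a fit over all probe sets, passed for none of these 4 (-0.42, -0.48, -0.62 and -0.53, adjusted p = 0.111 to 0.315). The NGFR difference includes replicate 1 of SW620, an array of degraded RNA, where the SW620 change was -3.04. Within replicates 3 to 6 the AJUBA change after NGFR knockdown was -0.14 in SW620 and 0.36 in SW480. The NGFR difference still passed without the arrays of degraded RNA. The AJUBA difference in CDK5 also ended with a replicate block (-0.78, adjusted p = 0.0553), with either control alone (adjusted p = 0.119 and 0.0830), with the probe sets averaged (-0.55, adjusted p = 0.0589) and without any 1 of replicates 2 to 6 (adjusted p = 0.0736 to 0.187). The others were CCN1 in CDK5, given above, AXL in HRAS (-1.29 ± 0.46, adjusted p = 0.0369), and ANKRD1 in HRAS (0.65 ± 0.19, adjusted p = 0.0109) and CDK5 (0.56 ± 0.20, adjusted p = 0.0432). ANKRD1 lay near the lower end of the scale in SW620 with and without knockdown, so a fall could hardly be measured there and its 2 differences follow the falls in SW480. With the non-target hairpin as the only control AXL in HRAS (-1.13, adjusted p = 0.173), ANKRD1 in HRAS (0.52, adjusted p = 0.125) and ANKRD1 in CDK5 (0.43, adjusted p = 0.239) did not pass. AXL in HRAS and ANKRD1 in CDK5 also ended without any 1 of replicates 3 to 6 (adjusted p = 0.139 to 0.214), and ANKRD1 in HRAS without replicate 3 or 4 (adjusted p = 0.145 and 0.103). With a replicate block ANKRD1 in CDK5 no longer passed (0.56, adjusted p = 0.0560). For the fall of CCN2 in SW620 knockdowns of MAP2K1, MAP2K2 and MAPK3, no difference from SW480 passed. The same held for all falls of AMOTL2 in SW620. It also held for those of AXL in the CDK5, MAP2K1, MAP2K2 and NGFR knockdowns.

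Each knockdown was also set against the mean of the other 5 knockdowns of its line, which leaves the vector controls out of the difference. Of 120 tests 25 passed, 13 higher and 12 lower, where 12.4% of all tests were called. The most calls lay in the HRAS (2 higher, 4 lower) and NGFR (2 higher, 3 lower) knockdowns of SW480. There 7 and 5 members had an unadjusted limma p under 0.05, beside 8146 and 8300 of all 19775 genes. Only the calls of CCN1, CCN2 and F3 are named here. In SW480 the CDK5 knockdown was lower than the others in CCN1 (-1.46 ± 0.20, adjusted p = 5.13e-08) and CCN2 (-1.39 ± 0.21, adjusted p = 8.12e-07), and the NGFR knockdown was higher in CCN2 (1.03, adjusted p = 7.62e-05). In SW620, CCN2 was lower in the CDK5 knockdown (-0.83, adjusted p = 0.0197) and higher in the HRAS (0.80, adjusted p = 0.00523) and NGFR knockdowns (0.87, adjusted p = 0.00224). CCN1 was higher in the HRAS knockdown of SW620 (1.12, adjusted p = 1.49e-05) and lower in that of MAPK3 (-0.70). F3 was higher in the MAP2K1 knockdown of SW480 (0.53) and in the MAPK3 knockdown of SW620 (0.41). No member passed in the MAP2K2 knockdown of either line, the MAP2K1 knockdown of SW620 or the MAPK3 knockdown of SW480.

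The other genes of the pathway were read from 4 lists. Of 35 measured Hippo kinases and upstream regulators, 32 tests of 210 were higher and 21 lower in SW480, and 37 and 21 in SW620. PTPN14, a phosphatase that binds YAP1 in the cytoplasm, rose in 10 of 12 comparisons, for example by 0.94 ± 0.16 in SW480 and 0.99 ± 0.16 in SW620 after HRAS knockdown. MAP4K4, a kinase that activates LATS, rose in 7 and fell in the NGFR knockdown of SW480 (-0.36 ± 0.11). RASSF4 rose in 3 and fell in 3. Of 14 measured TEAD factors and YAP partners, 3 of 84 tests were higher and 4 lower in SW480, and 6 and 11 in SW620. TEAD3 fell in the CDK5, MAP2K2, MAPK3 and NGFR knockdowns of SW620, by 0.38 to 0.51. RUNX2, which can bind YAP1, fell in 9 comparisons, and VGLL4, which competes with YAP1 for TEAD, rose in both lines after NGFR knockdown (0.53 and 0.52) and fell in SW620 after HRAS knockdown (-0.40).

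Of 22 other YAP/TEAD targets, 10 of 132 tests were higher and 13 lower in SW480, and 25 and 26 in SW620. THBS1, which encodes a secreted matrix protein, rose in all 6 SW620 knockdowns, from 1.92 ± 0.26 for NGFR to 4.11 ± 0.26 for HRAS, in the same arrays in which CCN2, AXL or AJUBA fell. BIRC5, the survival protein survivin, also rose in all 6 (0.52 to 1.24), and GADD45A, a stress response gene, fell in all 6 (by 0.73 to 1.29). Of 19 genes of the SRF and MRTF branch, which shares many targets with YAP/TEAD, 6 of 114 tests were higher and 14 lower in SW480, and 5 and 19 in SW620. ACTA2, smooth muscle actin, fell in 8 comparisons and FHL2 in 7, while TPM1 rose in 5. These counts stand beside 13.4% of tests called over all genes in SW480 and 25.6% in SW620. The median change of a list lay between -0.09 and 0.15 over the 4 lists and 12 comparisons. Between the vector controls, the other targets were higher in SW620 in 4 and lower in 14 of 22 genes.

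Genes whose pattern was most like that of a member were ranked by Pearson correlation over 18 group means, centred within each line, which share arrays and control groups. For CCN1 these were ARHGEF10 (0.81), IBA57-DT (0.78), RND3 (0.76), LINC01551 (0.76) and PRSS55 (0.74). For CCN2 they were TMTC4 (0.86), HIKESHI (0.84), MTPN (0.83), PXYLP1 (0.81) and RASSF2 (0.80). For AXL they were ZFP36L1 (0.86), NDEL1 (0.83), SOCS2 (0.82), RASA3 (0.82) and LARP6 (0.80), and for F3 DIPK1A (0.93), GK5 (0.92), YEATS4 (0.89), LSM8 (0.88) and PNRC2 (0.88). Among the members, over the 9 group means of a line, the highest correlations in SW620 were those of AMOTL2 and CCN2 (0.91), F3 and YAP1 (0.87) and AJUBA and AXL (0.85). In SW480 they were those of F3 and YAP1 (0.78), CCN1 and CCN2 (0.78) and F3 and TEAD1 (0.74). These are descriptions over few groups and carry no test.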

How the data were processed

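The deposited values are log2 expression levels per probe set, made by the authors with RMA per the submitters' processing notes. Versions, and whether all arrays were normalised together, are not given in the sources used here, and the values were not normalised again. Of 54675 probe sets, 41097 name 1 gene (updated from the reference gene table for 41043), 1801 several and 11777 none, and the last 2 kinds were left out. The brightest probe set stood for each of 19775 genes.

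The model was fitted to all arrays in R 4.3.3 by limma (version 3.58.1, lmFit and robust eBayes with a trend) and held group and, within line, label series. The R package data.table (version 1.17.8) read the files. Each two-sided test was adjusted over all genes of its comparison (Benjamini-Hochberg), with 0.05 as the threshold. The steps were tested on simulated data. The number of arrays limits the precision.

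The members and lists were chosen with earlier results of these data known. Besides the members, the 3 genes of each list called in the most comparisons are named, and the 5 genes most like CCN1, CCN2, AXL and F3. Same-numbered arrays of a knockdown and its control deviated together in all 71 pairs (r from 0.286 to 0.913), which the label series term covers. After removal of series means, r within replicates 3 to 6 was -0.263 to 0.224, over 0.1 in 11 of 48 pairs.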

Additional observations from a re-analysis of the deposited data

Results flagged for a closer look

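Of 160 groups of 5 or 6 arrays over the 10 genes, 34 had 1 array far from the others by Dixon's criterion. Chance alone gives about 1 in 20 where all arrays of a group are alike. That rate does not apply here, since levels were not adjusted for label series and each group mixes several series. The criterion cannot tell an odd array from a difference between label series. Of these arrays 10 were of replicate 1, 24 of replicate 2 and 0 of replicates 3 to 6. The CDK5 knockdown of SW620 stood apart at replicate 2 in 6 genes that were low there, namely YAP1 (9.69), TEAD1 (9.44), AJUBA (8.11), CCN1 (5.79), AXL (6.30) and F3 (5.37), and in ANKRD1, which was high (4.02). This group lacks replicate 1, so replicate 2 is its only array outside replicates 3 to 6. Against the vector controls of replicate 2 that array was higher in YAP1 (0.11), TEAD1 (0.48), F3 (0.36) and ANKRD1 (0.23). It was lower in AJUBA (-1.06), CCN1 (-0.46) and AXL (-1.23). The MAP2K1 knockdown of SW620 stood apart in YAP1 (10.1, low) and CCN2 (6.74, high) at replicate 1 and in AXL (4.94, low) at replicate 2. The MAPK3 knockdown of SW620 had a low replicate 1 in YAP1 (9.51). Its replicate 2 was low in AJUBA (9.43) and AXL (5.93) and high in LATS2 (8.33) and AMOTL2 (7.87). The MAP2K2 knockdown of SW620 had a high LATS2 (7.55) and a low AMOTL2 (5.44) at replicate 1, and the HRAS knockdown of SW620 a low AJUBA (8.23) at replicate 2. In the SW620 controls, replicate 2 of the empty vector was low in AJUBA (9.19) and high in AMOTL2 (8.16), and CCN2 was low at replicate 1 of the empty vector (4.85) and of the non-target hairpin (5.20).

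In SW480, replicate 1 of the MAPK3 knockdown, the array with 52.2% of the way to SW620, was low in LATS2 (5.56), AMOTL2 (5.75) and AXL (5.24). Replicate 2 was low in TEAD1 (9.32), AJUBA (7.68) and CCN1 (7.06) of the MAP2K1 knockdown, in AMOTL2 (8.13) and CCN1 (7.52) of the HRAS knockdown, in AMOTL2 (9.15) and CCN1 (7.45) of the empty vector, and in AXL (7.29) and F3 (6.05) of the CDK5 knockdown.

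The response to a knockdown differed between the lines, by the test of the difference itself (SW620 minus SW480), in 8 cases. These were AJUBA after knockdown of CDK5 (-0.78), MAP2K1 (-1.21), MAP2K2 (-1.05) and NGFR (-1.09), CCN1 after CDK5 (1.32), ANKRD1 after CDK5 (0.56) and HRAS (0.65), and AXL after HRAS (-1.29). ANKRD1 lay near the lower end of the scale in SW620, where a fall could hardly be measured. The AJUBA difference after NGFR knockdown includes an array of degraded RNA and was smaller within replicates 3 to 6.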

How the results depend on the processing

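None of the 30 member calls, the 8 line differences and the 8 differences between the controls of the lines reversed. The calls against the other 5 knockdowns were followed only as a count, and the genes of the lists not at all. Of the 30 member calls, 16 stood under all 17 settings other than the 3 coarsest. A replicate block kept 28 of the 30 and 6 of the 8 line differences and changed no other call than those given beside the results. The counts that follow have no share over all genes beside them, since the shares given above belong to the main fit. They describe how the calls moved with the setting, and do not set the members against other genes. Without a term for label series the members called were 3, 0, 1, 2, 1 and 0 for CDK5, HRAS, MAP2K1, MAP2K2, MAPK3 and NGFR, 0 line differences passed, and 3 tests against the other 5 knockdowns passed. Averaging arrays in pairs gave 4, 2, 1, 1, 2 and 1, with 1 and 8. Replicates 3 to 6 only gave 14, 14, 14, 10, 15 and 15, with 42 and 83, and 7 between non-target hairpin and empty vector. With 1 value per group and label series the counts were 0, 1, 0, 0, 1 and 1, with 0 and 1. Without all 6 arrays that stand apart, CDK5 gave 13, MAPK3 8, line differences 22, the other 5 knockdowns 49, and vector against non-transduced 6. These last 2 settings were chosen after seeing the data. The empty vector alone gave 3 for MAP2K1 and 3 for NGFR, and the non-target hairpin alone 2 for MAPK3, 3 for NGFR and 4 line differences. Without the SW480 arrays that hold genes of SW620, 14 line differences and 1 vector effect passed, and without degraded RNA 3 vector effects. Leaving out each replicate number gave 5 to 10 for CDK5, 5 to 9 for HRAS, 2 to 8 for MAP2K1, 4 to 6 for MAP2K2, 2 to 6 for MAPK3, 4 to 9 for NGFR, 4 to 25 line differences, 11 to 47 against the other 5, 7 to 8 between lines in the controls, 0 to 2 for the vector, and 0 to 0 between non-target hairpin and empty vector. Without replicates 3, 4, 5 or 6, 22 to 24 of the 30 calls stood. The order of levels within replicates 3 to 6 was also chosen after seeing the data. The causes were not tested.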
